A study of Mus musculus with 18 samples.

Results

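The results concern the left ventricle of MHC-cycD2 mice under volume load or under pressure load. The 5 libraries labelled Shunt were compared with the 3 labelled TAC (replicates 1, 2 and 4), 8 of the 18 samples of the series, chosen by those labels. All 8 mice were labelled as carriers of the MHC-cycD2 transgene on the (DBA/2J x C3HeB/FeJ)F1 background, and surgery was at 8 weeks of age. TAC narrowed the transverse aorta with a suture tied over a needle, whose gauge was chosen by sex, and the narrowing was made milder than in the procedure it followed, so that wild-type mice would survive it about as well as Shunt. Shunt opened the abdominal aorta into the vena cava by a needle puncture. The anaesthesia differed as well, with injected ketamine and xylazine for TAC and inhaled isoflurane for Shunt. The 5 cycD2 sham libraries of the same background are given as a reference level, and the labels do not say which of the sham operations these mice had. The time from surgery to tissue collection is not given in the sources used here. The 5 libraries labelled control WT, for which no age at surgery is listed, enter the fit as well and help to set clock genes apart. Nothing in the labels says how the transgenic line was founded or whether tissue was pooled. The p-values thus measure the spread within the groups of all 18 libraries, part of which may be technical.

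Pressure load makes the ventricle contract against a raised resistance, and heart muscle cells are known to thicken under it. Volume load stretches the ventricle in diastole, and the cells are known to lengthen. Under strain the muscle cell releases natriuretic peptides, brings back genes of the fetal heart and turns from fatty acids towards glucose, while fibroblasts lay down collagen. The transgene adds cyclin D2, which drives cells from G1 into S phase, under an MHC promoter, a promoter active in heart muscle cells.

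Depth was 23630932 to 24740087 gene counts per TAC library and 23900314 to 30594075 per Shunt library. Reads that the counter assigned to no gene feature were 13.6% to 14.9% in TAC and 15.0% to 19.9% in Shunt, with no overlap. Reads that aligned to several places were left out of these shares. The part of this difference in the results was not tested. Ccnd2, the gene that the transgene adds to, was at 22050, 228 and 25843 CPM (gene counts scaled to library size) in TAC replicates 1, 2 and 4 and at 17739 to 22211 CPM in Shunt. The library labelled TAC replicate 2 thus goes against its genotype label. Results are given with and without it, except the comparisons of TAC with sham, which include it. Xist and the Y-linked gene Ddx3y put TAC replicate 4 and the 5 sham libraries on the male side and TAC replicates 1 and 2 and the 5 Shunt libraries on the female side. For that reason the counts below are of autosomal genes, and sex and load cannot be told apart between Shunt and sham. Between TAC and sham they are mixed in part. The clock genes Arntl and Dbp put all TAC libraries in one phase of the day and all Shunt libraries in the other, so within these 8 libraries phase cannot be told apart from load. The heart muscle markers of the list checked (10 of 10 measured) summed to 71511 to 101923 CPM in TAC and 88876 to 98647 CPM in Shunt, the highest sum of the 13 cell type lists. By the test described next, 4 of these 10 markers were higher in Shunt, Myh6, Tnni3, Ryr2 and Pln, and none lower. When TAC replicate 2 was left out, 1 was higher, Pln, and 1 was lower, Actc1 (-0.79, adjusted p = 0.0302). Against sham, 6 of the 10 were lower in TAC, with a median log2 fold change of -0.34. None was called in Shunt, where the median was -0.25. In that comparison only 0.105% of all autosomal genes were lower.

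Of 14241 autosomal genes tested with edgeR's quasi-likelihood test, 1879 (13.2%) were higher in Shunt than in TAC and 1965 (13.8%) were lower, at a Benjamini-Hochberg adjusted p under 0.05; such genes are named as called below. At least 2-fold differences were fewer on the higher side, with 275 genes, than on the lower side, with 525. Every Shunt library lay above every TAC library for 12.0% of the genes and below for 12.7%. Without TAC replicate 2, 1279 (8.89%) and 1316 (9.15%) of 14383 genes were called, and 1146 and 1182 of them were among those called with it. Without TAC replicate 4, which leaves only libraries of the female side, the counts were 1862 (12.9%) and 2008 (13.9%) of 14422. With the log2 difference between Arntl and Dbp as a covariate, which the WT and sham libraries on both sides of it allow, they were 1008 (7.08%) and 1028 (7.22%). Leaving out TAC replicate 2 and adding that covariate left 591 (4.11%) and 658 (4.57%). The fits that leave out TAC replicate 2, add the clock covariate or make both changes are named below as the 3 other fits, and list counts under them are given in that order. Below, values are levels in CPM, differences are log2 fold changes of Shunt against TAC with their SE, and every adjusted p is edgeR's.

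The members were followed through 46 lists of 906 distinct genes, of which 867 were autosomal and tested, 14 were on the sex chromosomes and tested, and 25 were too low to test. Exceptions of a list and members named as not called were chosen after their values were seen. Collagens, matricellular proteins and stretch-responsive genes were mostly lower in Shunt, and genes of fatty acid oxidation and the TCA cycle were mostly higher. The bar plot of list counts gives both shares beside the shares of all autosomal genes. List counts include genes that follow the Arntl and Dbp difference in WT and sham, a set described with the clock genes. Where a list count below is near or under those shares, 13.2% higher and 13.8% lower, nothing is read from it.

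**Figure D1:**
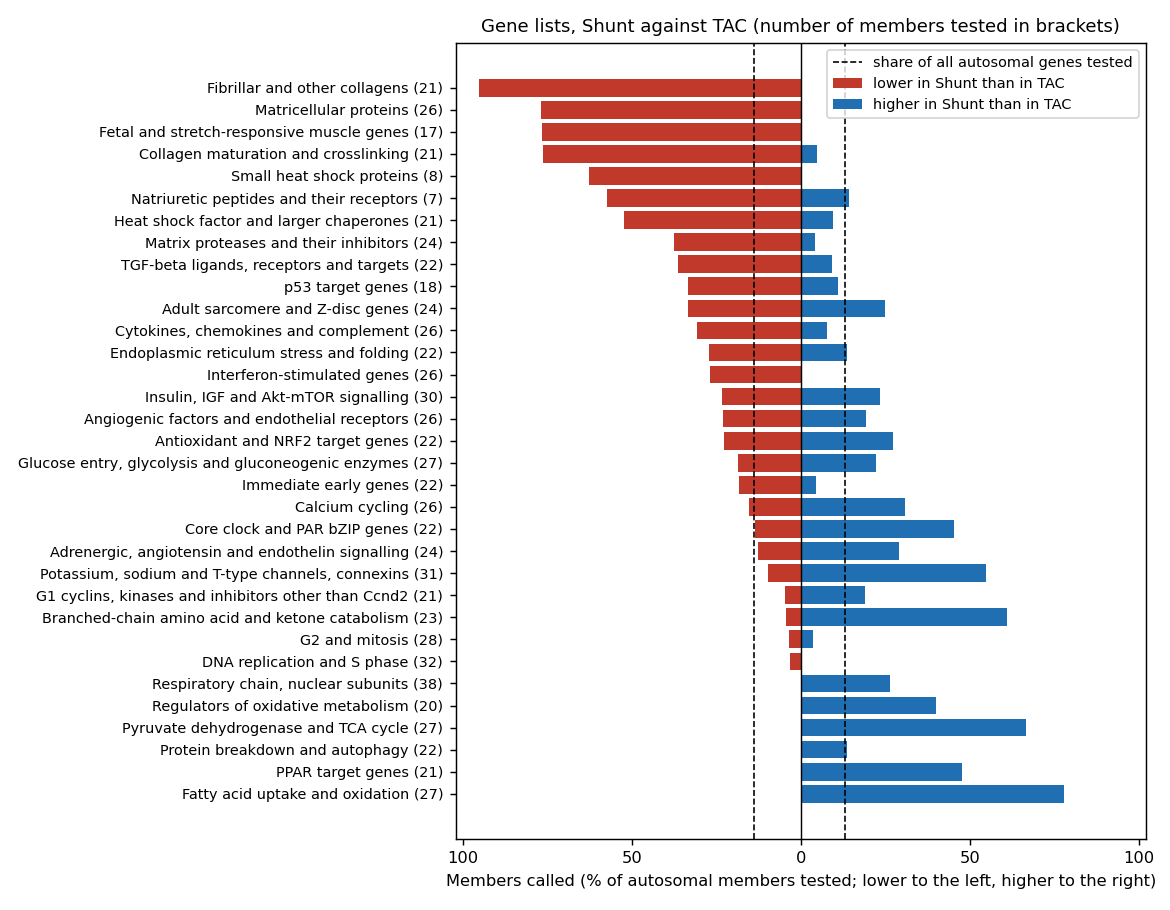
Share of the tested autosomal members of 33 gene lists called higher in Shunt than in TAC (blue, to the right) or lower (red, to the left), in percent, with the number tested in brackets. Dashed lines mark the 13.2% and 13.8% of all autosomal genes; fatty acid uptake and oxidation reached 21 of 27 higher, and fibrillar and other collagens 20 of 21 lower.

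Of the natriuretic peptide system, 4 of the 7 members tested were lower in Shunt and 1 was higher. In the 3 other fits 3, 3 and 1 were lower and 1 was higher in each. Nppa (ENSMUSG00000041616, GRCm38 chromosome 4, 148000722 to 148002079), which encodes atrial natriuretic peptide, was at 3681, 4686 and 2042 CPM in TAC replicates 1, 2 and 4 and at 330.0, 53.5, 25.6, 45.6 and 222 CPM in Shunt replicates 1 to 5. The groups did not overlap, and Shunt replicates 1 and 5 were the highest of the Shunt libraries and lay above the sham range of 36.5 to 52.99 CPM. The difference was -4.68 ± 0.70, a level 25.6-fold lower (adjusted p = 0.00033), and -4.40 without TAC replicate 2 (adjusted p = 0.00175). Nppa is also an atrial gene. The mean log2 CPM of the atrial genes Myl7, Myl4 and Sln was 1.57, 6.34 and 6.43 in TAC replicates 1, 2 and 4. It was 1.25, 5.53, 1.56, 6.84 and 2.32 in Shunt replicates 1 to 5. The part of atrial tissue in the Nppa difference was not tested. Nppb, the brain natriuretic peptide gene, stood at 1428, 850.0 and 541 CPM in TAC and at 138, 34.8, 8.08, 16.7 and 80.0 CPM in Shunt, again without overlap. Its difference was -4.08 ± 0.78 (adjusted p = 0.00166). Nppb is one of the genes that follow the clock difference, and with that covariate its value was -2.84 (adjusted p = 0.049). Among the receptors, the clearance receptor Npr3 was lower (-1.03 ± 0.22), with 19.5 to 30.1 CPM in TAC and 7.19 to 15.0 CPM in Shunt, and the guanylyl cyclase receptor Npr1 was lower by a smaller margin (-0.33 ± 0.10). The member that was higher, named after its value was seen, was Corin, the protease that cleaves pro-atrial natriuretic peptide, with 94.1, 71.9 and 119.9 CPM in TAC and 156, 208, 296, 266 and 190.5 CPM in Shunt (1.23 ± 0.19, adjusted p = 0.000281). Corin therefore differed in the opposite direction to the peptide gene whose product it processes. The test was not passed without TAC replicate 2 by Npr1 (-0.33, adjusted p = 0.0543).

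**Figure D2:**
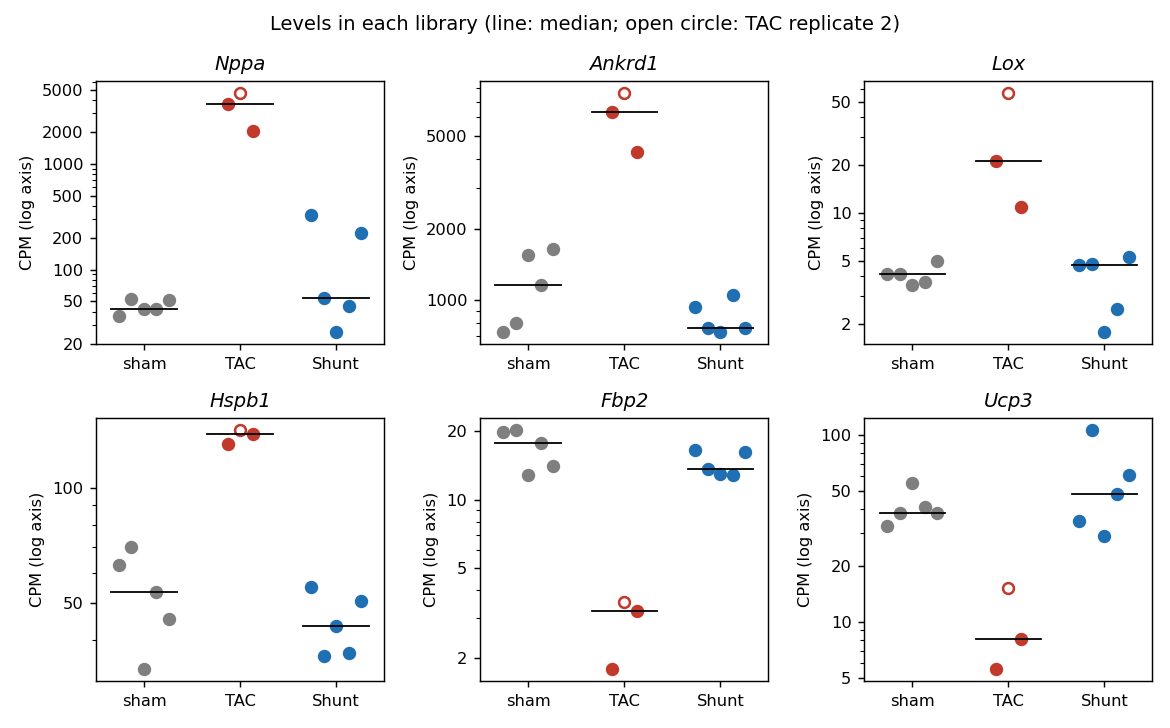
CPM of 6 genes on log axes in the 5 sham, 3 TAC and 5 Shunt libraries, 1 circle a library, with the group median as a line and TAC replicate 2 as the open circle. Nppa, Ankrd1, Lox and Hspb1 lay higher in every TAC library than in any Shunt library, and Fbp2 and Ucp3 lower.

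Fetal and stretch-responsive muscle genes were lower in Shunt for 13 of the 17 members tested and higher for none, with a median of -1.03 against -0.01 over all autosomal genes. The 3 other fits had 13, 12 and 10 lower. Of the 17 members, 8 follow the clock difference, among them Myh7 and, in the next paragraph, Ankrd1, Des and Rcan1. Acta1, the skeletal actin that the fetal heart uses, was at 5032, 9404 and 3769 CPM in TAC and 752, 151, 25.2, 62.7 and 452 CPM in Shunt (-4.39 ± 0.81, adjusted p = 0.00125). Its spread among Shunt libraries was wide, from 25.2 CPM in replicate 3 to 752 in replicate 1, and all 5 stayed below the lowest TAC value. Myh7, the slow myosin heavy chain of the fetal ventricle, differed far less, at 3939 to 4615 CPM in TAC and 2558 to 2741 CPM in Shunt (-0.66 ± 0.11, adjusted p = 0.00046). Myh6, the adult heavy chain, was higher in Shunt (0.38 ± 0.14, adjusted p = 0.0464) with overlapping libraries, and without TAC replicate 2 its adjusted p was 0.269.

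Ankrd1, a stretch-induced ankyrin repeat protein of the sarcomere and nucleus, was at 6313, 7618 and 4268 CPM in TAC and 929.6, 757, 727, 1046 and 755 CPM in Shunt. Its difference of -2.85 ± 0.30 (adjusted p = 2.27e-05) was -3.57 with the clock covariate, and sham held 729 to 1649 CPM. Xirp2, an actin-binding protein of the intercalated disc, was at 2999, 2710 and 1582 CPM in TAC and 579 to 769 CPM in Shunt (-1.90 ± 0.17, adjusted p = 2.4e-06). Enah, which extends actin filaments, was at 524, 314 and 361 CPM in TAC and 118 to 150.2 CPM in Shunt (-1.53 ± 0.14). Both groups' libraries were apart for each of these 3 genes. The intermediate filament Des (-1.04 ± 0.11) and the LIM protein Csrp3 (-0.75 ± 0.08) were lower by smaller amounts, and the sham values of Des and Csrp3, 2269 to 2805 and 1348 to 1580 CPM, overlapped the Shunt range of 2004 to 2478 and 1182 to 1357 CPM. Rcan1, which is induced by calcineurin and was picked after its value was seen, was at 724, 620.1 and 413 CPM in TAC and 62.1 to 96.7 CPM in Shunt (-2.83 ± 0.32, adjusted p = 3.62e-05). With the covariate its value was -1.91. The X-linked member Fhl1 had 1614, 1285 and 671 CPM in TAC and 213 to 424 CPM in Shunt (-2.001 ± 0.22).

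**Figure D3:**
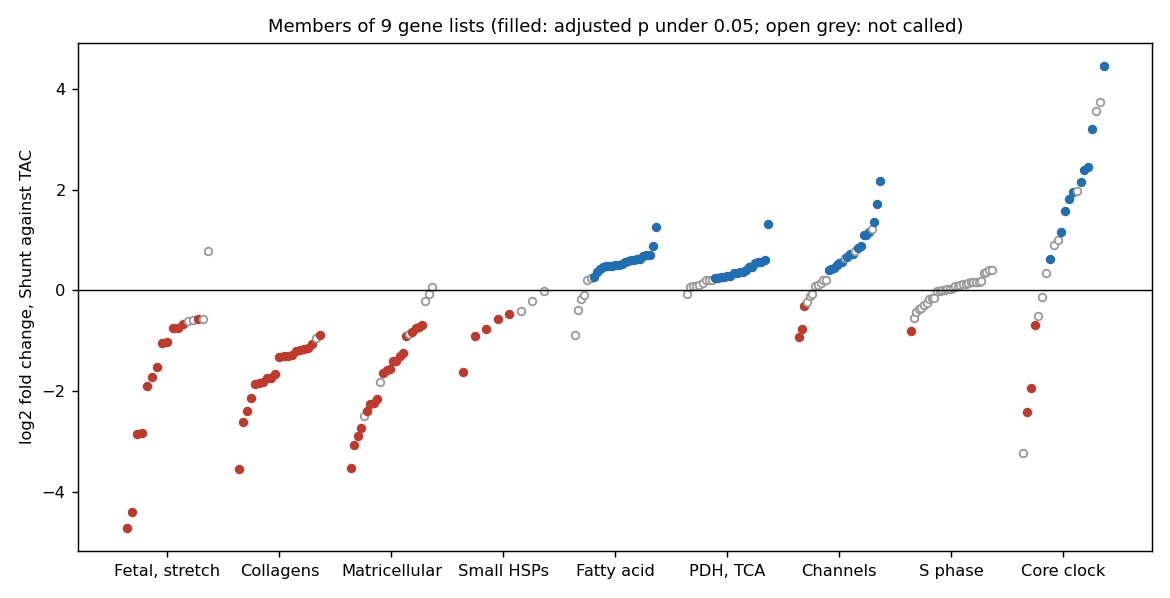
Log2 fold change of Shunt against TAC for every tested autosomal member of 9 lists, sorted within a list; filled circles were called (red lower, blue higher) and open grey circles were not. Collagens ran from -3.54 to -0.89, fatty acid genes from -0.88 to 1.26, and S phase genes from -0.81 to 0.40.

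Collagen genes were lower in Shunt for 20 of 21 members, the exception being Col14a1 (-0.93 ± 0.38, adjusted p = 0.0817), with a median of -1.32. Without TAC replicate 2 the count was 18, with the clock covariate it was 12, and with both changes it was 6, with medians of -1.22, -1.06 and -0.78. Col1a1 and Col1a2 encode the chains of type I collagen. Col1a1 was at 900.2, 1344 and 533 CPM in TAC and 255, 244, 114, 174 and 264 CPM in Shunt (-2.14 ± 0.33, adjusted p = 0.000317), and Col1a2 differed by -1.81 ± 0.27. Col3a1, the collagen of fine reticular fibres, was at 1496, 2316 and 861 CPM in TAC and 589, 534, 248, 403 and 576 CPM in Shunt (-1.73 ± 0.34, adjusted p = 0.00161). TAC replicate 2 was the highest library for all 3, and Shunt replicate 3 the lowest. Of type VI, V and IV collagens, Col6a2 (-1.30 ± 0.20), Col5a1 (-1.27 ± 0.20) and Col4a4 (-1.15 ± 0.17) were lower too. In sham, Col1a1 ranged from 118 to 298 CPM, a range that held 4 of the 5 Shunt values.

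Enzymes that process and crosslink collagen were lower for 16 of 21 members and higher for 1, P3h4 (0.70 ± 0.08). Lox (chromosome 18, 52516067 to 52529867), the lysyl oxidase that crosslinks collagen and elastin, was at 21.4, 56.9 and 10.9 CPM in TAC and 4.73, 4.77, 1.78, 2.495 and 5.27 CPM in Shunt (-2.97 ± 0.43, adjusted p = 0.000204). The TAC libraries spread widely for Lox, and without replicate 2, the highest of them, the difference was -2.08 (adjusted p = 0.00111). Loxl3, of the same family, was at 13.6, 33.9 and 12.1 CPM in TAC and 4.39 to 7.15 CPM in Shunt, and its difference fell in size from -1.61 ± 0.26 to -0.98 when that library was left out. P4ha1, the prolyl hydroxylase subunit that lets the triple helix form, was at 160.2, 169 and 115 CPM in TAC and 51.3 to 63.0 CPM in Shunt (-1.41 ± 0.21), and the procollagen C-proteinase Bmp1 differed by -0.75 ± 0.11. Without TAC replicate 2, and likewise with the clock covariate, 11 members of the list were lower, and with both changes 6 were.

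Among matrix proteases and their inhibitors 9 of 24 members were lower and 1, the inhibitor Timp3, was higher (1.28 ± 0.44). The gelatinase Mmp2 was at 302, 356 and 202 CPM in TAC and 127, 127, 96.5, 127 and 122 CPM in Shunt (-1.26 ± 0.15, adjusted p = 3.22e-05), and Mmp23 (-1.50 ± 0.23), the protease inhibitor Serpine2 (-0.73 ± 0.12) and the sheddase Adam17 (-0.47 ± 0.08) were lower as well. Timp1, an X-linked inhibitor of these proteases and so outside the counts, was at 20.4, 61.7 and 9.15 CPM in TAC and 4.42, 3.31, 1.17, 1.79 and 3.54 CPM in Shunt (-3.42 ± 0.55, adjusted p = 0.000461). TAC replicate 2 held the highest Timp1 value, and without it the difference was -2.37 (adjusted p = 0.00407). Of the list 7, 7 and 5 members were lower in the 3 other fits and none higher. The test was missed by Timp3 (1.55, adjusted p = 0.0586) once TAC replicate 2 was left out.

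Matricellular proteins, which sit in the matrix and signal to cells, were lower in Shunt for 20 of 26 members and higher for none, with a median of -1.48. Thbs4, a thrombospondin, was at 80.4, 171 and 39.2 CPM in TAC and 13.8, 14.9, 4.66, 8.42 and 16.2 CPM in Shunt (-3.07 ± 0.51, adjusted p = 0.00061). Ccn2, connective tissue growth factor, was at 770.3, 660.1 and 212 CPM in TAC and 165, 64.4, 33.1, 35.3 and 118 CPM in Shunt (-2.72 ± 0.53, adjusted p = 0.00181), and its relative Ccn1 differed by -1.56 ± 0.20. Sparc, a collagen-binding glycoprotein, differed by -1.24 ± 0.22 and Fbln2, a fibulin, by -0.90 ± 0.17. Postn, periostin, was at 436, 908 and 198 CPM in TAC and 172, 121, 30.3, 84.9 and 137 CPM in Shunt (-2.24 ± 0.58, adjusted p = 0.0103). Postn was not called without TAC replicate 2, at -1.53 (adjusted p = 0.0965), nor with the clock covariate, at -1.78 (adjusted p = 0.124). Of the list, 13 members were lower without TAC replicate 2, 7 with the clock covariate and 2 with both changes, and the median with both was -0.73.

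In the TGF-beta list, which holds ligands, the proteins that store them, receptors and targets, 8 of 22 members were lower and 2, the co-receptor Tgfbr3 (0.88 ± 0.16) and Ltbp1 (0.41 ± 0.10), were higher. Its counts in the 3 other fits were 6, 8 and 5 lower and 3, 1 and 1 higher. Tgfb2 was at 83.8, 57.4 and 47.0 CPM in TAC and 12.7, 14.4, 7.95, 13.0 and 12.6 CPM in Shunt (-2.37 ± 0.20, adjusted p = 2.4e-06). Its value was -2.43 without TAC replicate 2 and -2.22 with the clock covariate, and it was called in both. Tgfb3 (-1.03 ± 0.14) and Tgfb1 (-0.79 ± 0.12) were lower by less, and the latent binding protein Ltbp3 differed by -0.93 ± 0.16. Ltbp2, at 39.7, 118 and 29.2 CPM in TAC and 8.12, 15.9, 1.74, 6.29 and 9.79 CPM in Shunt (-2.90 ± 0.72, adjusted p = 0.0081), was not called without TAC replicate 2 (adjusted p = 0.0743). Gdf15, a stress cytokine of the family, was at 10.2, 34.9 and 4.59 CPM in TAC and 4.00, 1.999, 1.37, 1.71 and 2.86 CPM in Shunt, and its difference went from -2.80 ± 0.52 to -1.63 without that library (adjusted p = 0.017).

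In bulk tissue, fewer cells of a type and less RNA per cell cannot be told apart. Markers of activated fibroblasts were lower in Shunt for 7 of 9 members and summed to 1040 to 1955 CPM in TAC and 287.3 to 1136 CPM in Shunt. Fewer were lower in the 3 other fits, 4, 2 and 1, and the median went from -2.24 to -1.38, -1.51 and -0.98. Cilp was at 173, 167 and 61.4 CPM in TAC and 15.2, 16.7, 1.48, 11.8 and 13.1 CPM in Shunt (-3.53 ± 0.68, adjusted p = 0.00178). The transcription factor Meox1 was at 62.8, 74.1 and 26.1 CPM in TAC and 24.7, 14.3, 6.97, 11.1 and 20.8 CPM in Shunt (-1.804 ± 0.35), Tnc, tenascin C, differed by -2.88 ± 0.58 and Ddah1 by -1.06 ± 0.13. Of the markers of fibroblasts at rest, 6 of 11 were lower, among them Pi16 (-1.33 ± 0.21), Mfap5 (-1.57 ± 0.36), Dcn (-0.72 ± 0.19) and Dpep1 (-0.88 ± 0.17), and Scara5 was higher (0.72 ± 0.14); their sums were 3063 to 5774 CPM in TAC and 2551 to 3366 CPM in Shunt. Of these resting markers 3, 3 and 2 were lower in the 3 other fits. The libraries of both groups overlapped for Tnc, Mfap5 and Dcn. Dpep1 stood at 38.8 to 45.4 CPM in sham, above every Shunt library (13.7 to 19.3 CPM), with 27.9, 20.2 and 41.7 CPM in TAC. Endothelial markers were lower for 5 of 15, with Pecam1 at -0.35 ± 0.08, Emcn at -0.52 ± 0.11, Ecscr at -0.47 ± 0.09 and Tie1 at -0.41 ± 0.11, and summed to 2450 to 2629 CPM in TAC and 1966 to 2549 CPM in Shunt. Of the endothelial markers 3, 3 and 1 were lower in the 3 other fits. Smooth muscle and pericyte markers were lower for 4 of 12 (Cnn1, Cspg4, Pdgfrb and Kcnj8, from -1.61 ± 0.46 to -0.31 ± 0.11) and higher for Abcc9 (0.84 ± 0.13), with 3 lower in each of the 3 other fits. The part of these markers in the matrix results was not tested. When TAC replicate 2 was left out, Dcn (-0.38, adjusted p = 0.134), Tie1 (-0.38, adjusted p = 0.0585), Cnn1 (-1.28, adjusted p = 0.101) and Kcnj8 (-0.31, adjusted p = 0.0999) were not called.

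Macrophage markers were lower for 3 of 15, Csf1r (-0.40 ± 0.13), C1qc (-0.37 ± 0.13) and Fcgr1 (-0.74 ± 0.25), none of the 15 called in any of the 3 other fits, and summed to 384.2 to 623.3 CPM in TAC and 357.1 to 432.6 CPM in Shunt. Lymphocyte, neutrophil and mast cell markers summed to at most 19.04 CPM in either group, with 4 of 16 (Cd3d, Cd8a, Ms4a1 and Ly6g) too low to test and 1 of 12 lower, Cd4 (-1.22 ± 0.36). Atrial markers summed to 136.9 to 499.2 CPM in TAC and 151.8 to 671.9 CPM in Shunt and were uneven within each group, with Sbk2 and Tbx5 of 9 higher in Shunt. Red cell transcripts (Hbb-bs of 4 higher) summed to 15.9 to 33.9 CPM in TAC and 26.1 to 527.4 CPM in Shunt. Skeletal muscle markers (Atp2a1 and Tnnt1 of 8 higher), mesothelial (Krt18 of 8 lower), fat cell (Cidea of 6 lower) and Schwann cell and neuron markers (Uchl1 of 7 lower) summed to at most 77.0, 32.5, 59.3 and 23.2 CPM in a TAC or Shunt library. Over all autosomal genes 13.8% were lower and 13.2% higher, and the counts of 1 to 3 called members in these lists are near those shares or come from lists of at most 9 members, so nothing is read from them. Leaving out TAC replicate 2 ended the call of Csf1r (-0.23, adjusted p = 0.253), C1qc (-0.16, adjusted p = 0.38) and Fcgr1 (-0.43, adjusted p = 0.272).

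Small heat shock proteins, chaperones that hold unfolded proteins and are abundant in heart muscle, were lower in Shunt for 5 of 8 members, Hspb1, Hspb6, Hspb7, Hspb8 and Cryab, and the same number was called without TAC replicate 2, with the clock covariate and with both. Heat shock genes answer to heat shock factor, which binds inverted pairs of the letters GAA. The bases before the start of Hspb1 and of the inducible chaperone gene Hspa1b are shown because genes of both lists were lower together and both promoters hold such a pair. They are the 250 bases upstream of the start, 5′ to 3′ on the gene's strand, from RefSeq on GRCm38.p6 (chr5:135887669-135887918, plus strand, and chr17:34959239-34959488, minus strand), with matches to GAANNTTC in capitals:
Hspb1: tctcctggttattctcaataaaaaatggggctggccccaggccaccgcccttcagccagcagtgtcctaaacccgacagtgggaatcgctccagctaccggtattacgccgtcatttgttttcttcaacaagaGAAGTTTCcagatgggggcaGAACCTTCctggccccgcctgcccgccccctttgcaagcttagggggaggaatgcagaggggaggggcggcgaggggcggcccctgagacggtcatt
Hspa1b: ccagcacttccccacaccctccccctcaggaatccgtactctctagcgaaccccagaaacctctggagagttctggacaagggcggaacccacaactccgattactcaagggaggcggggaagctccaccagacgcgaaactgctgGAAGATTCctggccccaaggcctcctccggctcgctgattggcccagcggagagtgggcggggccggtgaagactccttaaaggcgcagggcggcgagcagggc
The letters GAANNTTC, read on both strands, occur in 6.78% of the 27025 promoters of the table, in 2 of 6 small heat shock protein promoters and in 4 of 16 of the larger chaperones. Among the called members they occur in 1 of 4 and in 2 of 8, so the called members held them no more often than their lists. A match describes the letters only.

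Hspb1 (ENSMUSG00000004951, 135887919 to 135889563 on chromosome 5), whose promoter is shown above, was at 129.8, 142 and 138 CPM in TAC replicates 1, 2 and 4 and at 55.2, 36.4, 43.5, 37.1 and 50.6 CPM in Shunt replicates 1 to 5. The TAC libraries lay within a narrow band and every Shunt library lay below it (-1.62 ± 0.18, 3.07-fold lower, adjusted p = 2.23e-05). Sham held 33.7 to 70.0 CPM, a range that holds all 5 Shunt values. Hspb6, the small heat shock protein that is phosphorylated after adrenergic stimulation, was at 1505, 1619 and 1536 CPM in TAC and 639 to 1106 CPM in Shunt (-0.91 ± 0.13). Cryab, the crystallin that binds desmin, was at 1999, 2870 and 2374 CPM in TAC and 1167 to 1769 CPM in Shunt (-0.76 ± 0.13), and Hspb8 differed by -0.47 ± 0.09.

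Of heat shock factor and the larger chaperones, 11 of 21 members were lower and 2, the mitochondrial Hspa9 (0.29 ± 0.06) and Hspd1 (0.26 ± 0.09), were higher. The 3 other fits had 8, 3 and 1 of them lower and 1, 2 and 0 higher. Hspa1b was at 14.1, 18.9 and 2.28 CPM in TAC and 2.12, 1.43, 1.34, 1.42 and 1.37 CPM in Shunt (-2.94 ± 0.97, adjusted p = 0.0365), and Hspa1a at 14.3, 13.0 and 2.45 CPM in TAC and 1.81, 1.84, 1.17, 1.01 and 1.20 CPM in Shunt (-2.83 ± 0.90, adjusted p = 0.0296). These copies are nearly identical. Reads that aligned to several places were counted in a dropped summary line, so the levels of both genes may be too low. Neither was called without TAC replicate 2 (adjusted p = 0.15 and 0.0994). Hspa1b spread widely in sham, from 0.920 to 9.72 CPM, which covers the Shunt values and 1 TAC library. Hsph1, which renews nucleotide on Hsp70, was at 112, 143 and 84.2 CPM in TAC and 37.5 to 41.6 CPM in Shunt (-1.52 ± 0.27, adjusted p = 0.000863). The co-chaperone Bag3 (-0.39 ± 0.08), Hsp90ab1 (-0.34 ± 0.07) and its activator Ahsa1 (-0.43 ± 0.09) differed by less. The test was missed by Hspd1 (0.19, adjusted p = 0.189) once TAC replicate 2 was left out.

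Folding genes of the endoplasmic reticulum split, with 6 of 22 lower, among them Pdia4 (-0.52 ± 0.10), Manf (-0.48 ± 0.13), Creld2 (-0.42 ± 0.13) and Calr (-0.34 ± 0.10), and 3 higher. The higher ones were Herpud1 (1.62 ± 0.47), Dnajb9 (0.37 ± 0.11) and Canx (0.31 ± 0.08), of which Herpud1 and Dnajb9 follow the clock difference, and with that covariate none of the 3 was called. The 3 other fits had 1, 1 and 0 of the folding genes lower and 3, 0 and 0 higher. Antioxidant genes split as well, 6 higher and 5 lower of 22. They were higher for 3, 1 and 1 and lower for 3, 4 and 0 in the 3 other fits. Those of mitochondria, peroxisomes and the cytosol, Sod2 (0.25 ± 0.07), Cat (0.30 ± 0.10), Prdx1 (0.24 ± 0.08) and Gstm1 (0.57 ± 0.15), were higher, and the secreted Sod3 (-0.84 ± 0.21) and Gpx3 (-0.73 ± 0.16), with Gpx1 (-0.51 ± 0.11) and Srxn1 (-0.49 ± 0.11), were lower. Targets of p53 were higher for 2 of 18, Sesn1 (0.83 ± 0.21) and Trp53inp1 (0.62 ± 0.15), and lower for 6, with Phlda3 at 29.2 to 44.0 CPM in TAC and 11.5 to 24.4 CPM in Shunt (-1.04 ± 0.18), Zmat3 (-0.43 ± 0.10), Aen (-0.40 ± 0.10) and Bbc3 (-0.76 ± 0.21). With the clock covariate 2 of the p53 targets were lower and none was higher, Trp53inp1 being at 0.46 (adjusted p = 0.101) and Sesn1 at 0.20 (adjusted p = 0.207), and with both changes 1 was lower. Cdkn1a, the p53 target that inhibits cyclin-dependent kinases, was not called (-1.15 ± 0.58, adjusted p = 0.157), with 152, 89.1 and 106 CPM in TAC and 95.2, 43.5, 22.8, 27.7 and 70.8 CPM in Shunt. Of immediate early genes 4 of 22 were lower and 1, Fosl1 (0.73 ± 0.26), was higher, and 2, 4 and 2 were lower and none higher in the 3 other fits. Over all autosomal genes 13.8% were lower and 13.2% higher. The counts of higher folding genes, higher p53 targets and immediate early genes are near or below those shares, and nothing is read from them. Egr2 was at 10.5, 8.91 and 3.56 CPM in TAC and 0.615, 1.31, 0.838, 0.708 and 0.910 CPM in Shunt (-3.13 ± 0.42, adjusted p = 9.17e-05), Egr3 differed by -2.41 ± 0.37, Myc by -1.25 ± 0.33 and Fosl2 by -0.84 ± 0.29, while Fos (-0.34 ± 1.000, adjusted p = 0.835) and Jun (-0.27 ± 0.22, adjusted p = 0.398) were not called. When TAC replicate 2 was left out, Manf (-0.41, adjusted p = 0.0645), Creld2 (-0.36, adjusted p = 0.0907), Calr (-0.29, adjusted p = 0.0849), Sod2 (0.23, adjusted p = 0.0594), Prdx1 (0.21, adjusted p = 0.13), Sod3 (-0.44, adjusted p = 0.108), Fosl1 (0.81, adjusted p = 0.0839), Myc (-0.91, adjusted p = 0.0859) and Fosl2 (-0.86, adjusted p = 0.0988) were not called.

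Genes of fatty acid uptake and oxidation were higher in Shunt for 21 of the 27 members tested and lower for none, with a median of 0.50. The count was 20 without TAC replicate 2, 20 with the clock covariate, when the transporter Slc27a6 was lower (-1.802, adjusted p = 0.0259), and 19 with both. The heart muscle markers higher in Shunt, 4 of 10 and 1 without TAC replicate 2, moved in the same direction, and their part in this result and in those of the other muscle genes below was not tested. At entry, the transporter Slc27a1 was at 77.1, 89.2 and 114 CPM in TAC and 205, 224, 241, 219.6 and 227 CPM in Shunt (1.26 ± 0.12, adjusted p = 8.67e-06). Within the mitochondrion, Hadhb, the beta subunit of the trifunctional protein, was at 149, 179 and 202 CPM in TAC and 249.7 to 291 CPM in Shunt (0.63 ± 0.08). Decr1, needed for unsaturated fatty acids, differed by 0.71 ± 0.10 and Etfa, which passes electrons on to the chain, by 0.59 ± 0.08. For all 4 the libraries of the groups were apart, TAC lay below the sham range, and Shunt overlapped it except for Decr1, which had 394 to 483 CPM in sham against 341 to 380.0 in Shunt. Among the 21, the differences ran from 1.20-fold for the dehydrogenase Acadl to 2.39-fold for Slc27a1.

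Targets of PPAR, the nuclear receptors that sense fatty acids, were higher for 10 of 21 and lower for none. Of them 8, 11 and 9 were higher in the 3 other fits. Ucp3 (ENSMUSG00000032942, chromosome 7, 100472990 to 100486432), a mitochondrial carrier induced by fatty acids, was at 5.59, 15.1 and 8.12 CPM in TAC and 34.4, 107, 28.8, 48.1 and 61.1 CPM in Shunt (2.54 ± 0.50, 5.80-fold higher, adjusted p = 0.00185). Shunt replicate 2 was the highest, TAC replicate 2 the highest of TAC, and without the latter the difference was 3.03 (adjusted p = 0.00377). Lpl, the lipase that frees fatty acids from lipoproteins, was at 2883, 3579 and 3520 CPM in TAC and 5452, 5907, 6503, 6153 and 5270 CPM in Shunt (0.82 ± 0.09, adjusted p = 1.04e-05). The carrier Slc25a34 (0.95 ± 0.11), the peroxisomal enzyme Ehhadh (0.83 ± 0.13) and Cyp4b1 (1.10 ± 0.18) were higher too. Pdk4, a PPAR target that shuts off pyruvate dehydrogenase, was not called (0.00 ± 0.51, adjusted p = 0.996), and its libraries overlapped, with 218, 641 and 205 CPM in TAC and 438, 526, 123, 208 and 484 CPM in Shunt.

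Regulators of oxidative metabolism were higher for 8 of 20 and lower for none, with 8, 6 and 5 higher in the 3 other fits. Ppara was at 28.5, 24.9 and 25.9 CPM in TAC and 57.8, 39.1, 53.8, 55.3 and 63.6 CPM in Shunt (1.03 ± 0.17, adjusted p = 0.000453), the co-activator Ppargc1b at 16.5 to 25.0 CPM in TAC and 30.6 to 42.8 CPM in Shunt (0.78 ± 0.14), and Sirt1, a deacetylase, differed by 0.47 ± 0.08. Klf15, a factor that follows the day, was at 27.8, 30.7 and 41.2 CPM in TAC and 115, 56.9, 90.0, 87.1 and 93.9 CPM in Shunt (1.42 ± 0.31, adjusted p = 0.00323) and was not called with the clock covariate (0.63, adjusted p = 0.0555).

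Fbp2 (ENSMUSG00000021456, chromosome 13, 62836877 to 62858422) encodes the muscle fructose-bisphosphatase, which runs against glycolysis at the phosphofructokinase step. Its 250 upstream bases are shown since the gene is one of the markers of this comparison and its promoter holds both an E-box (CACGTG) and a heat shock pair, in capitals (RefSeq, GRCm38.p6, chr13:62858401-62858650, minus strand, 5′ to 3′):
Fbp2: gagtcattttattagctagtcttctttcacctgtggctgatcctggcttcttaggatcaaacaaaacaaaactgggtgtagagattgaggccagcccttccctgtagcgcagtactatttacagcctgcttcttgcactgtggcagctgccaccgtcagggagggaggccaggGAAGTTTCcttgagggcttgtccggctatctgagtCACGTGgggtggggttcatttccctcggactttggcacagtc
An E-box occurs in 6.05% of all promoters of the table. Fbp2 was at 1.796, 3.55 and 3.22 CPM in TAC replicates 1, 2 and 4 and at 16.5, 13.6, 12.9, 12.9 and 16.3 CPM in Shunt replicates 1 to 5, so every Shunt library was above every TAC library. The difference was 2.34 ± 0.21, 5.06-fold higher (adjusted p = 2.4e-06), 2.54 without TAC replicate 2 and 2.56 with the clock covariate. Sham held 12.9 to 20.4 CPM. The promoters of Hspb1 and Hspa1b, shown above, hold the heat shock pair too and no E-box. All were shown because they hold that pair, and the part of these letters in the levels was not tested.

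The other genes of glucose use went both ways, 6 higher with Fbp2 and 5 lower of 27. The 3 other fits gave 5, 3 and 3 higher and 5, 5 and 1 lower. At the same step the enzymes that run forwards, Pfkp at 201, 162 and 141 CPM in TAC and 104, 80.5, 55.6, 69.9 and 91.5 CPM in Shunt (-1.07 ± 0.18, adjusted p = 0.00057) and Pfkl (-0.56 ± 0.12), were lower, while the muscle form Pfkm (0.26 ± 0.08) and the regulator Pfkfb3 (0.99 ± 0.34) were higher. The insulin-dependent transporter Slc2a4 was higher, at 382, 456 and 455 CPM in TAC and 640.3 to 781 CPM in Shunt (0.66 ± 0.12, adjusted p = 0.000829), as were glycogen phosphorylase Pygb (0.70 ± 0.14) and the muscle enolase Eno3 (0.45 ± 0.10). The muscle phosphoglycerate mutase Pgam2 (-0.57 ± 0.13), Pck2 (-0.51 ± 0.14) and the hexokinase Hk1 (-0.32 ± 0.12) were lower. The transporter Slc2a1 (-0.10 ± 0.19, adjusted p = 0.73) and Hk2 (0.19 ± 0.10, adjusted p = 0.143) were not called. In the fit without TAC replicate 2 no call was made for Pfkm (0.19, adjusted p = 0.143) and Pfkfb3 (1.14, adjusted p = 0.0698).

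Pyruvate dehydrogenase and the TCA cycle had 18 of 27 members higher and none lower, with 12 without TAC replicate 2, 9 with the clock covariate and 5 with both. Idh3a was at 672, 643 and 754 CPM in TAC and 914 to 979 CPM in Shunt (0.46 ± 0.07), Dld, a subunit shared by the dehydrogenase complexes, at 442, 422 and 481 CPM in TAC and 609.5 to 653 CPM in Shunt (0.47 ± 0.07), and Sdha and Suclg2 differed by 0.57 ± 0.09 and 0.56 ± 0.08. Catabolism of branched-chain amino acids and ketones had 14 of 23 higher and 1 lower, and 13, 9 and 5 higher in the 3 other fits. Ppm1k, the phosphatase that activates the branched-chain dehydrogenase, was at 72.0, 61.2 and 94.2 CPM in TAC and 113, 202, 218, 207 and 143 CPM in Shunt (1.22 ± 0.18, adjusted p = 0.000189). Aldh6a1 (0.85 ± 0.11), Mut (0.52 ± 0.07) and Pcca (0.45 ± 0.07) on the way to succinyl-CoA were higher too. The lower one was Bdh1, which oxidises the ketone body hydroxybutyrate, at 189, 391 and 107 CPM in TAC and 124, 83.2, 33.3, 35.9 and 116 CPM in Shunt with 18.7 to 48.9 CPM in sham (-1.54 ± 0.44, adjusted p = 0.018); it was not called without TAC replicate 2 (adjusted p = 0.19). Nuclear subunits of the respiratory chain differed by less, with 10 of 38 higher and a median of 0.16, and 4, 2 and 0 higher in the 3 other fits. Atp5a1, Atp5b and Atp5c1 of the ATP synthase differed by 0.36 ± 0.08, 0.40 ± 0.10 and 0.41 ± 0.09 and Ndufs1 of complex I by 0.43 ± 0.08.

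In calcium cycling, 8 of 26 members were higher in Shunt and 4 were lower. For this list, in the 3 other fits, 6, 7 and 4 were higher and 4, 1 and 2 lower. Atp2a2, the pump that returns calcium to the sarcoplasmic reticulum, was at 12411, 10988 and 14750 CPM in TAC and 17558, 20958, 23551, 21636 and 20993 CPM in Shunt (0.72 ± 0.10, adjusted p = 8.23e-05). Its inhibitor Pln was higher with it, at 5393 to 6733 CPM in TAC and 8276 to 10605 CPM in Shunt (0.65 ± 0.09). Ryr2, the release channel, was called (0.44 ± 0.12, adjusted p = 0.0122) with overlapping libraries, at 2472, 1618 and 2271 CPM in TAC and 2292, 3044, 2945, 3120 and 2994 CPM in Shunt. Ppp1r3a, which targets a phosphatase to glycogen and the reticulum, differed by 1.35 ± 0.21 and Camk2a by 0.83 ± 0.16. Lower members included S100a1 (-0.49 ± 0.10), Atp2b4 (-0.51 ± 0.14) and Camk2d (-0.34 ± 0.08). The test was missed by Ryr2 (0.28, adjusted p = 0.0797) once TAC replicate 2 was left out.

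Ion channels and connexins were higher for 17 of 31 and lower for 3, among them Kcna4 (-0.92 ± 0.33) and Kcnj8 (-0.31 ± 0.11), with a median of 0.53. Kcnv2, a silent subunit that modifies other potassium channels, was at 3.55, 2.56 and 7.13 CPM in TAC and 12.5, 20.4, 27.3, 22.8 and 16.1 CPM in Shunt (2.17 ± 0.29, adjusted p = 0.000108). Kcnj3, a channel opened by acetylcholine, was at 32.8, 36.0 and 45.1 CPM in TAC and 70.5, 98.7, 116, 119.8 and 81.0 CPM in Shunt (1.36 ± 0.17, adjusted p = 3.62e-05). Kcnh2, which carries the rapid delayed rectifier current, was at 71.1, 74.4 and 123 CPM in TAC and 156 to 218 CPM in Shunt (1.11 ± 0.18) and Kcnd2, of the transient outward current, at 25.4, 22.4 and 21.7 CPM in TAC and 38.0 to 63.6 CPM in Shunt (1.17 ± 0.21). Each of these 4 lay higher in every Shunt library than in any TAC library. Altogether 15, 10 and 9 members of the list were higher in the 3 other fits, with 1, 2 and 2 lower. The connexin Gja1 (-0.11 ± 0.22, adjusted p = 0.752) was not called. When TAC replicate 2 was left out, Kcnj8 (-0.31, adjusted p = 0.0999) was not called.

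Adult sarcomere and Z-disc genes divided, 6 higher and 8 lower of 24, with 3, 2 and 3 higher and 9, 4 and 5 lower in the 3 other fits. Higher in Shunt were Tcap, the titin cap, at 790.1, 662 and 1272 CPM in TAC and 3528, 2387, 2813, 2406 and 3052 CPM in Shunt (1.64 ± 0.56, 1.47 without TAC replicate 2, adjusted p = 0.16), Nebl (0.60 ± 0.12), the light chain kinase Mylk3 (0.50 ± 0.12), Tnni3 (0.40 ± 0.12) and Tmod1 (0.36 ± 0.06), while the Z-disc proteins Pdlim5 (-0.88 ± 0.16), Actn2 (-0.57 ± 0.11) and Ldb3 (-0.44 ± 0.09) and the myosin-binding protein Mybpc3 (-0.55 ± 0.11) were lower. Pdlim5 was at 1773, 1480 and 1392 CPM in TAC and 1181, 792, 623, 685 and 936 CPM in Shunt, and Actn2 at 3850, 3057 and 4054 CPM in TAC and 2860, 2264, 2209, 2220 and 2762 CPM in Shunt. The test was not passed without TAC replicate 2 by Tnni3 (0.27, adjusted p = 0.132).

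In adrenergic, angiotensin and endothelin signalling, 7 of 24 members were higher and 3 lower. Under the 3 other fits 4, 6 and 4 were higher and 3, 2 and 2 lower. Rgs2, which turns off Gq signalling, was at 34.6, 20.2 and 37.2 CPM in TAC and 89.7, 79.0, 88.1, 81.5 and 75.9 CPM in Shunt (1.43 ± 0.24, adjusted p = 0.000466). The adrenergic receptors Adrb1 (0.84 ± 0.26), Adra1a (0.93 ± 0.32) and Adra1b (0.84 ± 0.27) were higher. The angiotensin receptor Agtr1a (0.99 ± 0.19), the phosphodiesterase Pde4d (0.90 ± 0.13) and the cyclase Adcy6 (0.78 ± 0.20) were higher too, and Ace, which makes angiotensin II, was lower, at 152, 227 and 152 CPM in TAC and 107, 70.9, 50.1, 79.0 and 96.3 CPM in Shunt (-1.13 ± 0.20, adjusted p = 0.000723). Gnai2 (-0.32 ± 0.10) and Grk5 (-0.44 ± 0.16) were the other lower members. Of the insulin, IGF and Akt-mTOR list, 7 of 30 were higher and 7 lower, and 6 of the lower ones, all but the insulin receptor substrate Irs2 (-1.22 ± 0.43), encode secreted proteins. That list had 7, 4 and 3 higher and 5, 6 and 2 lower in the 3 other fits. Igf1 was at 52.3, 48.6 and 27.3 CPM in TAC and 19.8, 19.7, 12.5, 17.2 and 17.3 CPM in Shunt (-1.31 ± 0.21, adjusted p = 0.000302), and its binding proteins Igfbp6 (-1.28 ± 0.16), Igfbp7 (-1.09 ± 0.18) and Igfbp4 (-0.90 ± 0.16) were lower with it. Inside the cell, Pik3r1 was at 101.6, 104 and 116 CPM in TAC and 351, 194, 332, 302 and 314 CPM in Shunt (1.48 ± 0.20, adjusted p = 0.000111), and the neuregulin receptor Erbb4 (1.28 ± 0.20), Akt1 (0.48 ± 0.10) and Akt2 (0.46 ± 0.08) were higher. Pik3r1 and Akt1 follow the clock difference, and with the covariate their values were 0.93 (adjusted p = 0.000551) and 0.23 (adjusted p = 0.0915). The test was missed by Adrb1 (0.59, adjusted p = 0.135), Adra1b (0.56, adjusted p = 0.158), Adcy6 (0.58, adjusted p = 0.0582), Gnai2 (-0.25, adjusted p = 0.122) and Irs2 (-1.30, adjusted p = 0.0917) once TAC replicate 2 was left out.

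Angiogenic factors and receptors had 5 of 26 higher and 6 lower. Higher members numbered 3, 2 and 2 and lower ones 3, 3 and 2 in the 3 other fits. Angpt1, the ligand that steadies vessels through Tek, was at 10.4, 14.1 and 15.4 CPM in TAC and 27.3, 46.3, 90.7, 52.3 and 35.1 CPM in Shunt (1.92 ± 0.31, adjusted p = 0.000438), and Fgf2 (1.03 ± 0.34), Pdgfa (0.36 ± 0.11) and Epas1 (0.34 ± 0.07) were higher too. The lymphatic ligand Vegfc (-0.69 ± 0.16) and its receptor Flt4 (-0.54 ± 0.10) were lower, as were Pdgfrb (-0.67 ± 0.10) and Tie1. Vegfa was not called (-0.35 ± 0.22, adjusted p = 0.25). Cytokines, chemokines and complement had 8 of 26 lower and 2 higher. Without TAC replicate 2, 6 were lower, and none was with the clock covariate or with both changes, when the median was -0.18 and 0.05 against -0.49 in the reported fit. Tnfrsf12a, the receptor of the cytokine TWEAK, was at 305, 148 and 209 CPM in TAC and 113, 37.0, 25.5, 35.3 and 67.2 CPM in Shunt (-1.99 ± 0.41, adjusted p = 0.0025), the oncostatin receptor Osmr differed by -0.73 ± 0.15, Ccl21a by -1.30 ± 0.32 and complement C7 by -1.48 ± 0.34 (-1.22 with the covariate, adjusted p = 0.0677). The higher members were Lifr, a receptor of leukaemia inhibitory factor, at 48.3, 47.4 and 50.5 CPM in TAC and 98.6, 83.4, 97.8, 88.3 and 88.7 CPM in Shunt (0.91 ± 0.07, adjusted p = 1.13e-06), and Ccl11 (2.01 ± 0.32); both were named after their values were seen. Lifr and the ligand Lif, at -1.72 ± 0.43, differed in opposite directions. Interferon-stimulated genes were lower for 7 of 26, with Isg15 (-0.79 ± 0.20), Oas1a (-0.70 ± 0.19), Oasl2 (-0.69 ± 0.14) and Ifi27 (-0.56 ± 0.15), and 3, 1 and 0 were in the 3 other fits. In protein breakdown and autophagy 3 of 22 were higher, near the 13.2% of all genes: Pink1 (0.68 ± 0.13), Map1lc3b (0.26 ± 0.09) and Trim55 (0.25 ± 0.08). With the clock covariate 2 of that list were higher and 3 lower. When TAC replicate 2 was left out, Fgf2 (1.16, adjusted p = 0.0523), Pdgfa (0.30, adjusted p = 0.0919), Oas1a (-0.65, adjusted p = 0.0512), Map1lc3b (0.26, adjusted p = 0.105) and Trim55 (0.22, adjusted p = 0.0914) were not called.

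Cyclin D2 acts on the G1 phase of the cell cycle. Of DNA replication and S phase genes 1 of 32, Tyms (-0.81 ± 0.26), was lower and none higher, with a median of 0.05; without TAC replicate 2, whose Ccnd2 level was near that of WT, 4 were lower, with a median of -0.24. They were the helicase subunits Mcm2 (-0.88, adjusted p = 0.000191), Mcm3 (-0.77, adjusted p = 0.00602) and Mcm5 (-0.59, adjusted p = 0.0323) and the clamp loader subunit Rfc4 (-0.61, adjusted p = 0.00066). Mcm2 was at 80.1, 8.32 and 76.9 CPM in TAC replicates 1, 2 and 4 and at 38.8 to 45.2 CPM in Shunt. Rfc4 was at 20.4, 6.82 and 19.6 CPM in TAC and 12.2 to 14.3 CPM in Shunt. For each of the 4, TAC replicate 2 lay below every Shunt library and TAC replicates 1 and 4 above. With the clock covariate alone none was called, with a median of -0.13, and with both changes 7 were lower (Mcm2, Mcm3, Mcm4, Mcm5, Mcm6, Rfc4 and the chromatin assembly factor Chaf1a at -1.16), with a median of -0.46. That is 7 of 32 against 4.57% of all genes in that fit, and the count in the reported fit was 1 of 32 against 13.8%. Each of these S phase genes was named after its value was seen. In G2 and mitosis 1 of 28 was higher, Cenpf (1.23 ± 0.36), and 1 lower, Ttk (-0.87 ± 0.31), with a median of -0.49. Once TAC replicate 2 was left out none was higher and 3 were lower, the kinase Aurka (-0.92, adjusted p = 0.029), the checkpoint protein Bub1b (-1.11, adjusted p = 0.00282) and the spindle protein Tpx2 (-0.97, adjusted p = 0.0328), and with both changes 2 were lower, Bub1b and Ttk. Set beside sham, 24 of the 28 were higher in TAC, against 16.5% of all autosomal genes, and 1, Cenpf, was lower, with a median of 1.24. None was called in Shunt, where the median was 0.76. In that comparison only 0.0281% of all autosomal genes were higher and 0.105% lower. Mki67, a marker of cycling cells, was at 30.1, 17.5 and 17.8 CPM in TAC and 33.9, 8.20, 12.4, 14.6 and 24.6 CPM in Shunt, with 8.54 to 14.7 CPM in sham, and was not called (-0.21 ± 0.35, adjusted p = 0.688). Shunt replicates 1 and 5 were the highest Shunt libraries for it, as for Nppa. Among G1 genes 4 of 21 were higher, the inhibitors Cdkn1b at 53.4, 41.2 and 65.8 CPM in TAC and 72.0, 85.1, 81.8, 88.5 and 73.7 CPM in Shunt (0.59 ± 0.11, adjusted p = 0.00105) and Cdkn2c (0.61 ± 0.18), the pocket protein Rbl2 (0.52 ± 0.11) and Cdk2 (0.43 ± 0.15), and E2f3 was lower (-0.71 ± 0.14). Of G1 genes, in the 3 other fits, 3, 1 and 0 were higher and 2, 0 and 1 lower. The G1 counts of the reported fit are near or below the 13.2% higher and 13.8% lower of all autosomal genes, and nothing is read from them. Ccnd2 itself was not called (0.35 ± 0.74, adjusted p = 0.764), nor was it without TAC replicate 2 (-0.22, adjusted p = 0.312). Leaving out TAC replicate 2 ended the call of Tyms (-0.53, adjusted p = 0.219), Cenpf (1.01, adjusted p = 0.105), Ttk (-0.996, adjusted p = 0.0501) and Cdk2 (0.23, adjusted p = 0.234).

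Further genes were named by rule, as the largest called differences outside the clock set among protein-coding genes whose Shunt and TAC libraries did not overlap. The separation of the groups for these genes was thus fixed by that choice, and genes of low average level were left out. Higher in Shunt were Clcn1, a muscle chloride channel, at 1.68, 1.54 and 3.48 CPM in TAC and 6.50, 10.3, 14.3, 14.1 and 9.23 CPM in Shunt (2.29 ± 0.28, adjusted p = 3.36e-05), and Slc16a7, a monocarboxylate transporter, at 7.55, 5.68 and 9.75 CPM in TAC and 25.8, 31.1, 40.3, 32.6 and 27.0 CPM in Shunt (2.04 ± 0.22, adjusted p = 1.34e-05). The phosphatase Ptprt was at 6.63, 1.38 and 8.63 CPM in TAC and 15.9, 23.6, 27.3, 25.7 and 21.1 CPM in Shunt (2.04 ± 0.37), and TAC replicate 2 held the lowest value. Aqp4, a water channel, was at 1.64, 3.35 and 2.79 CPM in TAC and 9.81, 9.59, 9.32, 12.7 and 11.5 CPM in Shunt (2.03 ± 0.27), Tbc1d10c differed by 1.997 ± 0.36, and Abca4, at 5.96, 8.41, 31.1, 6.07 and 7.57 CPM in Shunt, differed by 1.93 ± 0.52 with 1 high library, replicate 3. Lower in Shunt, beside genes given above, was the serpin Serpinb1c, at 28.8, 25.0 and 16.0 CPM in TAC and 6.62, 2.86, 0.537, 2.57 and 4.00 CPM in Shunt (-2.82 ± 0.46, adjusted p = 0.000466).

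Clock genes were set apart. Arntl, the activator of the clock, was at 48.5, 44.0 and 45.7 CPM in TAC and 1.15, 14.4, 0.570, 1.90 and 6.63 CPM in Shunt, and Dbp, a target of it that peaks at the opposite time, at 5.71, 8.09 and 7.47 CPM in TAC and 176, 70.1, 223, 164 and 146 CPM in Shunt. Neither gene's groups overlapped; sham replicates 1 and 2 stood with TAC and replicates 3 to 5 with Shunt. Dbp was called (4.46 ± 1.42, adjusted p = 0.0306) and Arntl was not (-3.23 ± 1.28, adjusted p = 0.0756). With only the Shunt and TAC libraries in the fit, both were called (adjusted p = 0.00067 for Dbp and 0.0302 for Arntl). The repressors Nr1d2 (2.40 ± 0.51) and Nr1d1 (1.17 ± 0.28) and the activator Rora (0.63 ± 0.14) were higher in Shunt. In all 10 of the 22 core clock genes were higher and 3 lower. Without TAC replicate 2, 4 were higher and 1 lower. A further set of genes followed the Arntl and Dbp difference in the 10 WT and sham libraries alone, and with the core list they made 2155 autosomal genes. Of these, 361 (16.8%) were higher and 347 (16.1%) lower in Shunt, against 1518 (12.6%) and 1618 (13.4%) of the 12086 others. The fit takes its spread from all 4 groups, and sham and WT libraries lie in both phases. This widens the SE of genes in this set and can keep them from being called. Of the 22 core genes, every Shunt library lay above every TAC library for 14 and below for 4. The size of the phase difference is therefore not read from these shares. The test was missed by Dbp (4.57, adjusted p = 0.102) once TAC replicate 2 was left out.

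**Figure D4:**
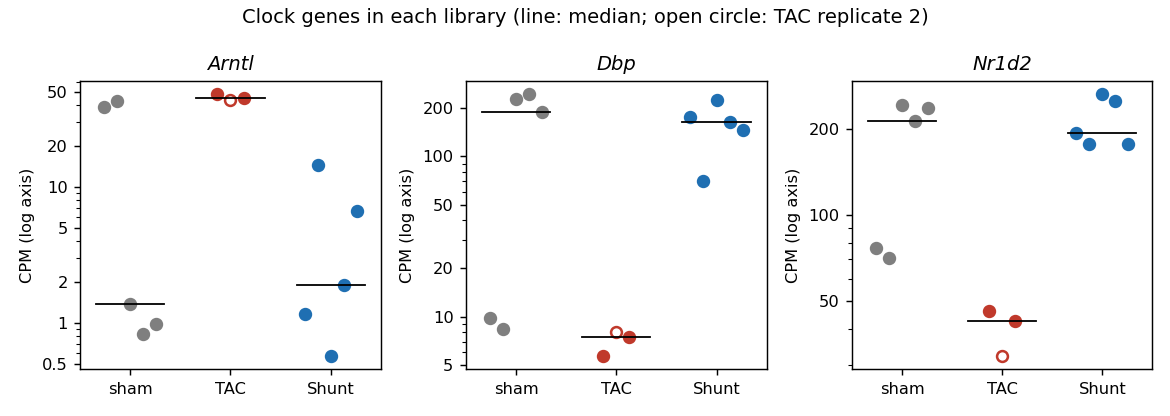
CPM of Arntl, Dbp and Nr1d2 on log axes in the 5 sham, 3 TAC and 5 Shunt libraries, with the group median as a line and TAC replicate 2 as the open circle. All TAC libraries lay at 44.0 CPM or more of Arntl and 8.09 CPM or less of Dbp, and sham split between both phases.

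Of the 200 genes named by rule, 195 were called. Most were named because they were called, since the rules for lists and for the largest differences took called genes only. Of the 195, 160 stayed called without TAC replicate 2, 131 with the clock covariate, and 99 with both changes. These counts describe genes picked by the same test and not called genes at large. Among the markers, Nppa (-4.57, adjusted p = 0.0156), Hspb1 (-1.33, adjusted p = 0.00412), Lox (-1.58, adjusted p = 0.0292), Fbp2 (2.75, adjusted p = 2.49e-05) and Ucp3 (3.02, adjusted p = 0.018) were among those 99.

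**Figure D5:**
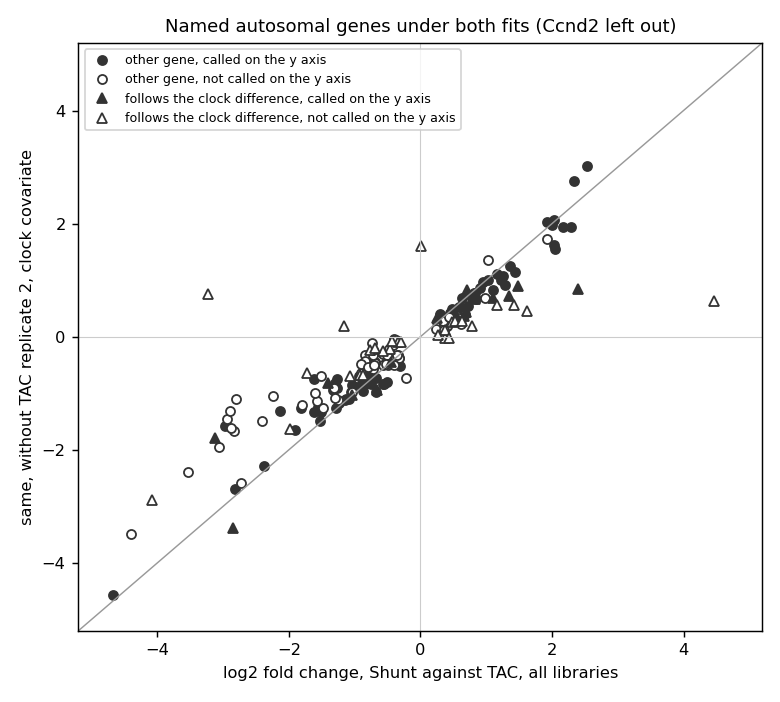
Log2 fold change of Shunt against TAC for the named autosomal genes with all libraries (x axis) against the value after dropping TAC replicate 2 and adding the clock covariate (y axis); the grey line marks equal values. Filled symbols were called on the y axis and triangles follow the clock difference; Nppa sits at -4.68 and -4.57, and Arntl and Cdkn1a lie above 0 on the y axis with values below 0 on the x axis.

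Set beside sham in the same fit, 2351 (16.5%) autosomal genes were higher and 2088 (14.7%) lower in TAC, while 4 (0.0281%) were higher and 15 (0.105%) lower in Shunt. Both comparisons share the sham libraries, which were all on the male side. The Shunt one is also a comparison of sexes, and the TAC one is so in part, through TAC replicates 1 and 2. TAC replicate 2 is included, and TAC was not compared with sham without it. For the lists above, all 21 collagens were higher in TAC than in sham and none was called in Shunt, and 22 of 27 fatty acid genes were lower in TAC, 2 were higher, and none was called in Shunt. Of small heat shock proteins 5 were higher and 1 lower in TAC, and none was called in Shunt. Nppa differed from sham by 6.26 in TAC (adjusted p = 4.67e-05) and by 1.58 in Shunt (adjusted p = 0.25), and Fbp2 by -2.57 (adjusted p = 1.03e-06) and -0.23 (adjusted p = 0.513). C7 and Dpep1 were lower in Shunt than in sham, by -2.39 and -1.41 (adjusted p = 0.00129 and 0.000139).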

How the data were processed

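Left ventricle RNA was sequenced from 18 libraries prepared with a TruSeq RNA v2 kit, per the labels' protocols; that kit does not mark strand, so overlapping antisense genes cannot be told apart. The submitters' processing notes name the aligner STAR 2.3.0e, the counter HTSeq 0.6.1p1, CASAVA 1.8.2, SAMtools 0.1.19, FastQC and DESeq2 1.8, with GRCm38 and mm10 as builds. The deposited values are whole-number counts of reads per gene and library, made by the authors before any normalization. Summary lines, which name no gene, were dropped. Of 38355 identifiers 36602 matched a gene name, and the unmatched took up to 0.160% of the counts in a library.

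Groups come from the labels. All 18 libraries were fitted with edgeR 4.0.16 (R 4.3.3, TMM scaling, filterByExpr with a minimum count of 10, robust quasi-likelihood test), which gave a biological coefficient of variation of 0.16, and p-values were adjusted by Benjamini-Hochberg over all 14876 genes. CPM are TMM-scaled, and the SE is the log2 fold change over the root of the F statistic. The method was tested on simulated data. No duplicate libraries were found.

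Members and lists were chosen with earlier results of these data known. Genes were named by rule: the markers, a fixed panel, 6 clock genes, members of lists and genes of large difference. Per list and direction with at least 3 called, up to 4 members of smallest p were taken. The 10 largest differences each way came from called protein-coding genes outside the clock set whose Shunt and TAC libraries did not overlap. Their log2 CPM also had to average 1 or more. Of the 200 named genes 154 had a RefSeq promoter (GRCm38.p6). Alternatives were libraries left out, covariates (clock difference, Y-linked genes, atrial genes), a replicate block, other scalings, filters, a test against 1.5-fold, DESeq2 1.42.0 and limma 3.58.1. Some members of the lists are counted but not reported here by name.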

Additional observations from a re-analysis of the deposited data

Results flagged for a closer look

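In 20 of 400 groups of 5 libraries (200 genes in Shunt and in sham) 1 library stood apart from the other 4 by Dixon's test at 95%, about the 1 in 20 that chance gives. Shunt replicate 3 was the lowest Shunt library for Cilp at 1.475 CPM, Loxl3 at 4.393 CPM, Mmp2 at 96.47 CPM, Tgfb2 at 7.947 CPM and Ddah1 at 13.68 CPM, and the highest for Abca4 at 31.08 CPM and Slc2a4 at 781.2 CPM. Shunt replicate 1 was highest for Hspa1b at 2.115 CPM and Epas1 at 464.8 CPM, and lowest for Ryr2 at 2292 CPM. Shunt replicate 2 was highest for Serpine2 at 41.58 CPM and lowest for Pde4d at 27.38 CPM and Pik3r1 at 194.4 CPM, and its Arntl level was the highest of Shunt. Srxn1 was lowest in Shunt replicate 4 at 20.6 CPM. In sham, Hspa1a was lowest at 0.7816 CPM and Ehhadh highest at 18.71 CPM in replicate 3, Npr1 highest at 28.48 CPM in replicate 2, Gstm1 highest at 257.4 CPM and Pde4d lowest at 24.88 CPM in replicate 4, and Akt2 lowest at 130.8 CPM in replicate 5.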

How the results depend on the processing

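The counts of 1879 higher and 1965 lower genes became 1008 and 1028 with the clock covariate, 591 and 658 with that covariate and without TAC replicate 2, and 112 and 244 in a test against 1.5-fold. With only Shunt and TAC libraries in the fit the higher count was 1241. Leaving out 1 library gave 1279 to 2046 higher and 1316 to 2129 lower genes. For autosomal genes higher in Shunt than in TAC DESeq2 gave 2096, and for autosomal genes lower in Shunt than in TAC 2071. The cause of these changes was not tested, except that a fit of 8 libraries has fewer samples. Of the 195 called genes named by rule, 46 were called under all 22 alternatives and 149 whichever 1 library was left out, and all 195 under DESeq2 and under both other scalings. Most of these genes were named because the reported fit called them, so these counts do not describe called genes at large.

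Without TAC replicate 1, 22 named genes were not called (among them Myh6, Hspa1a, Hspa1b, Abca4, Herpud1, Dnajb9, Sod2, Cat, Prdx1, Fosl2, Atp2b4, Kcnj8, Kcna4, Tnni3, Grk5, Trim55, Map1lc3b, Pdgfa, Ccl21a, Cspg4 and Dbp; adjusted p by edgeR 0.0511 to 0.293). Without TAC replicate 4 there were 13 (Npr1, Herpud1, Dnajb9, Cat, Prdx1, Bbc3, Pck2, Kcnj8, Kcna4, Grk5, Fgf2, Tie1 and Dbp; adjusted p 0.0543 to 0.137). Leaving out Shunt replicate 1, 2, 3, 4 or 5 lost 7, 10, 15, 12 or 9, among them Myh6, Hspa1a, Hspa1b, Cat, Prdx1, Fosl2, Kcnj8, Kcna4, Grk5, Trim55, Map1lc3b, Fgf2, Cdk2, Csf1r, Fcgr1, C1qc and Dbp (adjusted p 0.0525 to 0.0966 for these).

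Signs changed for these genes. Ccnd2, with leave-one-out values up to 0.88 (without TAC replicate 4), was at -0.22 without TAC replicate 2. Pdk4, at 0.0041 in the reported fit, was at -0.25 without TAC replicate 1, -0.27 without TAC replicate 4, -0.08 without Shunt replicate 1, -0.18 without Shunt replicate 2, -0.13 without Shunt replicate 5, -0.38 with Y-linked genes as a covariate, -0.0013 under upper quartile scaling and -0.0111 with a filter of 1 CPM, against a highest leave-one-out value of 0.75 without TAC replicate 2. Mki67 ran from -0.54 without Shunt replicate 1 to 0.092 without TAC replicate 1. With the clock covariate Cdkn1a was at 0.34, Grk5 at 0.0033 and Arntl at 0.71. With it and without TAC replicate 2, Cdkn1a was at 0.19, Arntl at 0.76, Myh6 at -0.023 and Cdk2 at -0.023.

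Shared replicate numbers were not taken as pairs: the correlations of deviations for numbers 1, 2 and 4 were 0.17, 0.14 and 0.09. TAC replicates 1 and 2 were most like the Shunt libraries of the same number, and TAC replicate 4 was most like Shunt replicate 3, at 0.20. With a replicate block, autosomal genes higher in Shunt than in TAC numbered 1574 and autosomal genes lower in Shunt than in TAC 1676. Depth limits genes of a few CPM, such as Hspa1b, Gdf15 and Egr3, most.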
